A study of Mus musculus with 12 samples.

Results

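Astrocyte genes are described here as 10 protein-coding genes of the mouse that are commonly used to recognise astrocytes, namely Aqp4, Gja1, Gfap, Slc1a2, Slc1a3, Aldh1l1, Aldoc, S100b, Fgfr3 and Glul. They were chosen by symbol, through the match of Ensembl identifiers to the GENCODE annotation of GRCm38. Their values did not enter that rule, but earlier results of these data were known when they were chosen. The 10 genes are 10 of 52638 entries in the table of counts, and each passed the filter on low counts in all 5 comparisons. Counts per gene and library ranged from 432 to 51507.

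Astrocytes are glial cells that take up glutamate and potassium released by neurons, carry water and ions at the wall of blood vessels, and pass metabolites to neurons. In the hypothalamus they surround the neurons of feeding circuits and the median eminence, and they are known to respond to leptin. Several of the 10 genes are not exclusive to astrocytes: Glul and S100b are also expressed in oligodendrocytes, and Gfap, Slc1a3 and Gja1 also in tanycytes, the glia that line the third ventricle.

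The study asked what the transcription factor STAT3 does in cells that express LepRb, the long form of the leptin receptor. The control animals (Ctrl) were adult mice that carried LepRb-Cre/Cre together with R26-GFP:L10a/GFP:L10a, in which Cre switches on a ribosomal protein L10a fused to green fluorescent protein in LepRb cells. The Stat3KO animals were adult mice that carried the same alleles and in addition Stat3-flox/flox. Cre and the tagged ribosome were thus present in both genotypes, and among the alleles named only the floxed gene differed. Whether the genotypes also differed in sex, body weight or DNA near Stat3 was not tested. In each genotype hypothalami of 5 to 8 mice were pooled per replicate, with 3 pools per genotype, and every pool gave RNA bound to the beads that pulled down the tagged ribosomes (bead-bound) and the remaining RNA, in the supernatant. Cre acts where LepRb is or was expressed, so in astrocytes without LepRb neither the tag nor a loss of Stat3 is expected from the design.

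The 12 libraries fall into 4 groups of 3 and held 20743217 to 41829907 counts. Levels are CPM, each count as a share of its library's total after scaling with trimmed-mean factors, errors are SD over n = 3 pools, and a gene is called higher or lower at a Benjamini-Hochberg adjusted p under 0.05 over all genes tested with edgeR. The tag transcript Gfp_L10a stood at 82.3 to 164 CPM on beads and 7.39 to 15.3 CPM in supernatant, without overlap. Bead-bound Stat3 averaged 141 ± 23.5 CPM for Stat3KO against 166 ± 19.6 CPM for Ctrl, a log2 fold change of -0.24 with adjusted p = 0.999, and counts over the whole gene do not show whether floxed exons were lost. In bulk RNA, fewer astrocytes in a sample and less of a transcript per astrocyte cannot be told apart.

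The astrocyte genes were lower on beads than in supernatant, and between genotypes none of them passed the test. Of the 10 genes, 8 were lower on beads in Ctrl, where 21.2% of the 18036 genes tested were lower, and 10 were lower in Stat3KO, where 17.3% of 18107 were lower. None was higher on beads, where 20.7% and 14.7% of all genes were. At an unadjusted p under 0.05 (25.3% and 20.7% of all genes higher) and in DESeq2 (22.2% and 17.4%) the count of higher members was 0 as well. In supernatant 0 of 10 passed between Stat3KO and Ctrl, where 0.0108% of 18547 genes were called, both of those lower. In bead-bound RNA 0 of 10 passed, where 0.449% of 17354 genes were called.

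STAT3 is known to bind the palindrome TTCNNNGAA, and Gfap is a known STAT3 target in developing and reactive astrocytes. The promoters of the 10 genes were therefore searched for this motif in RefSeq windows on GRCm38.p6, each 300 bases long, from 250 bases before to 50 bases after a gene start. Of the 10 genes 9 had an entry, with 11 windows between them, and 3 windows held the motif, against 8.3% of 32851 windows of all genes. The motif reads the same on both strands, so a search of either finds every match. The 3 windows are shown because they are the promoters of astrocyte genes that hold the motif, with each match in capitals.
Gfap, chr11:102897151-102897450, minus strand: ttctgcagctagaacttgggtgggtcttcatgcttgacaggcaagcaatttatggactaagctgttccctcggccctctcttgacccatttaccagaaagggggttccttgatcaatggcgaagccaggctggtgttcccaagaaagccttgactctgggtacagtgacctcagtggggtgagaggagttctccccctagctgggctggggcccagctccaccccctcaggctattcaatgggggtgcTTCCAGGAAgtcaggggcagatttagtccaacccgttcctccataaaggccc
Slc1a3, chr15:8710758-8711057, minus strand: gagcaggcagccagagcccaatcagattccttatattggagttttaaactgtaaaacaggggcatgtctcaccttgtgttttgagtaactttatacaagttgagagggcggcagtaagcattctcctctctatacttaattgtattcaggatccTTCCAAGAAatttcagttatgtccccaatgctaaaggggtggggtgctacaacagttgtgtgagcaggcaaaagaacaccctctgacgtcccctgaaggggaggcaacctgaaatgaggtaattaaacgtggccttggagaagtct
Aldoc, downstream start, chr11:78323948-78324247, plus strand: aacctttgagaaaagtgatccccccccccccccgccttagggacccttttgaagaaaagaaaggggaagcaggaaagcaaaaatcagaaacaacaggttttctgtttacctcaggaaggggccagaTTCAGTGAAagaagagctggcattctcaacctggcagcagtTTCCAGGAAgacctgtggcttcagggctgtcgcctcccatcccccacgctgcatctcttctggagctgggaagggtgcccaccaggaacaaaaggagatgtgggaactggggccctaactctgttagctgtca
The match in the Gfap window begins 2 bases before the RefSeq start, that of Slc1a3 begins 96 bases before it, and those of Aldoc begin 124 and 83 bases before the downstream of its 2 starts. A match describes the letters only, and no binding data were used. Sequence outside these windows was not searched, and whether a match is a site known to bind STAT3 was not tested. Gfap itself lies 1.95 Mb from Stat3 on chromosome 11 and Aldoc 22.6 Mb from it.

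Aqp4 and Gja1 encode the membrane proteins by which astrocytes pass water and small solutes. Aqp4 (ENSMUSG00000024411; GRCm38 chromosome 18, 15389496 to 15410982), the water channel of astrocyte endfeet on blood vessels, stood at 25.1, 19.3 and 26.4 CPM in replicates 1, 2 and 3 on Ctrl beads, against 13.6, 18.0 and 15.3 CPM on Stat3KO beads. In supernatant it stood at 55.2, 56.9 and 69.4 CPM in Ctrl and at 34.4, 38.7 and 29.6 CPM in Stat3KO. The 4 groups did not overlap for Aqp4, with Ctrl supernatant highest and Stat3KO beads lowest. Aqp4 was lower on beads than in supernatant, at -1.36 on the log2 scale in Ctrl (SE 0.152, adjusted p = 0.000508) and -1.14 in Stat3KO (SE 0.157, adjusted p = 0.00121).

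Gja1 (ENSMUSG00000050953; chromosome 10, 56377330 to 56402513), the main connexin of astrocyte gap junctions, stood at 39.3, 30.7 and 37.8 CPM in Ctrl beads and at 30.0, 34.4 and 24.7 CPM in Stat3KO beads. Its supernatant levels were 69.0, 82.8 and 100.3 CPM in Ctrl and 61.1, 65.7 and 43.0 CPM in Stat3KO. The 2 bead groups overlapped, while every supernatant library was above every bead library. The log2 fold change of beads against supernatant was -1.22 in Ctrl (SE 0.162, adjusted p = 0.00097) and -0.94 in Stat3KO (SE 0.186, adjusted p = 0.00582).

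Slc1a2, Slc1a3 and Glul handle glutamate: the first pair encode the transporters that clear it from synapses, and Glul encodes glutamine synthetase, which converts it to glutamine. Slc1a2 (ENSMUSG00000005089; chromosome 2, 102658659 to 102790784) was at 179, 193 and 227 CPM in Ctrl beads, 178, 204 and 154 CPM in Stat3KO beads, 390.5, 517.5 and 541.6 CPM in Ctrl supernatant and 406, 435 and 332 CPM in Stat3KO supernatant. Beads held less in all 6 pools, with log2 fold changes of -1.27 in Ctrl (SE 0.149, adjusted p = 0.000592) and -1.14 in Stat3KO (SE 0.15, adjusted p = 0.000972). Slc1a3 (ENSMUSG00000005360; chromosome 15, 8634124 to 8710764) was at 55.6, 41.9 and 58.0 CPM in Ctrl beads, 48.6, 49.7 and 30.9 CPM in Stat3KO beads, 89.9, 114 and 138 CPM in Ctrl supernatant and 97.6, 96.5 and 64.2 CPM in Stat3KO supernatant. It too was lower on beads, by log2 fold changes of -1.13 in Ctrl (SE 0.182, adjusted p = 0.00218) and -1.01 in Stat3KO (SE 0.218, adjusted p = 0.00832). Replicate 3 of Stat3KO was the lowest of its group for both transporters, on beads and in supernatant.

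Glul (ENSMUSG00000026473; chromosome 1, 153899944 to 153909723) was at 733, 419 and 429 CPM in Ctrl beads and at 682, 563 and 468 CPM in Stat3KO beads. In supernatant it stood at 988.5, 1014 and 968.6 CPM in Ctrl and at 989, 1189 and 1072 CPM in Stat3KO. Its lowest supernatant library was above its highest bead library, and replicate 1 was the highest bead library of each genotype. The log2 fold change of beads against supernatant was -0.90 in Ctrl (SE 0.216, adjusted p = 0.0113) and -0.94 in Stat3KO (SE 0.156, adjusted p = 0.00275).

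Aldoc and Aldh1l1 encode metabolic enzymes, the brain aldolase of glycolysis and a folate enzyme that is a common marker of the whole astrocyte population. Aldoc (ENSMUSG00000017390; chromosome 11, 78322968 to 78327781) was at 843, 509 and 420 CPM in Ctrl beads, 673, 554 and 509 CPM in Stat3KO beads, 803, 720.5 and 677 CPM in Ctrl supernatant and 714.5, 890 and 854 CPM in Stat3KO supernatant. Replicate 1 of Ctrl beads exceeded every Ctrl supernatant library, so the Ctrl groups overlapped and the log2 fold change of -0.30 (SE 0.241) had adjusted p = 0.34. In Stat3KO the groups did not overlap and Aldoc was lower on beads (-0.51, SE 0.145, adjusted p = 0.0246), a call lost without Stat3KO bead replicate 2 or 3 or supernatant replicate 2 or 3 (adjusted p = 0.0636, 0.0935, 0.107 and 0.0839). Aldh1l1 (ENSMUSG00000030088; chromosome 6, 90486427 to 90600203) was at 25.6, 15.8 and 12.9 CPM in Ctrl beads, 16.4, 20.9 and 19.7 CPM in Stat3KO beads, 28.5, 33.8 and 28.6 CPM in Ctrl supernatant and 27.4, 36.8 and 34.9 CPM in Stat3KO supernatant. It was lower on beads in Ctrl (-0.74, SE 0.242, adjusted p = 0.0372) and in Stat3KO (-0.81, SE 0.159, adjusted p = 0.00571). The Ctrl call was lost without bead replicate 2 or 3 (adjusted p = 0.125 and 0.0866) and without supernatant replicate 1, 2 or 3 (0.054, 0.0994 and 0.0666).

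Gfap, S100b and Fgfr3 encode the intermediate filament of astrocytes, a calcium-binding protein and a receptor for fibroblast growth factors. Gfap (ENSMUSG00000020932; chromosome 11, 102887336 to 102900912) was at 131, 43.0 and 60.0 CPM in Ctrl beads, 60.9, 51.2 and 43.9 CPM in Stat3KO beads, 148, 103.5 and 126 CPM in Ctrl supernatant and 106, 105.5 and 98.0 CPM in Stat3KO supernatant. Replicate 1 of Ctrl beads was more than the other two libraries of its group together and lay inside the range of Ctrl supernatant. The fold change of beads against supernatant did not pass in Ctrl (log2 -0.68, SE 0.368, adjusted p = 0.169) and passed in Stat3KO (-1.0, SE 0.14, adjusted p = 0.00135).

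S100b (ENSMUSG00000033208; chromosome 10, 76253853 to 76261159) was at 82.2, 37.6 and 41.97 CPM in Ctrl beads, 59.95, 41.3 and 36.15 CPM in Stat3KO beads, 157, 112 and 120 CPM in Ctrl supernatant and 106, 115 and 95.85 CPM in Stat3KO supernatant. It was lower on beads in Ctrl (-1.25, SE 0.294, adjusted p = 0.0103) and in Stat3KO (-1.22, SE 0.187, adjusted p = 0.00194), with replicate 1 again the highest bead library of each genotype. Fgfr3 (ENSMUSG00000054252; chromosome 5, 33721674 to 33737068) was at 31.1, 19.1 and 20.96 CPM in Ctrl beads, 19.4, 37.7 and 21.6 CPM in Stat3KO beads, 52.4, 43.6 and 43.4 CPM in Ctrl supernatant and 51.4, 50.2 and 35.6 CPM in Stat3KO supernatant. Replicate 2 of Stat3KO beads lay above replicate 3 of Stat3KO supernatant, the only overlap of fractions among the 10 genes in Stat3KO. Fgfr3 was lower on beads in Ctrl (-0.96, SE 0.193, adjusted p = 0.00531) and in Stat3KO (-0.81, SE 0.251, adjusted p = 0.0343), and the Stat3KO call was lost without supernatant replicate 1 or 2 or bead replicate 3 (adjusted p = 0.0992, 0.121 and 0.117).

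**Figure D1:**
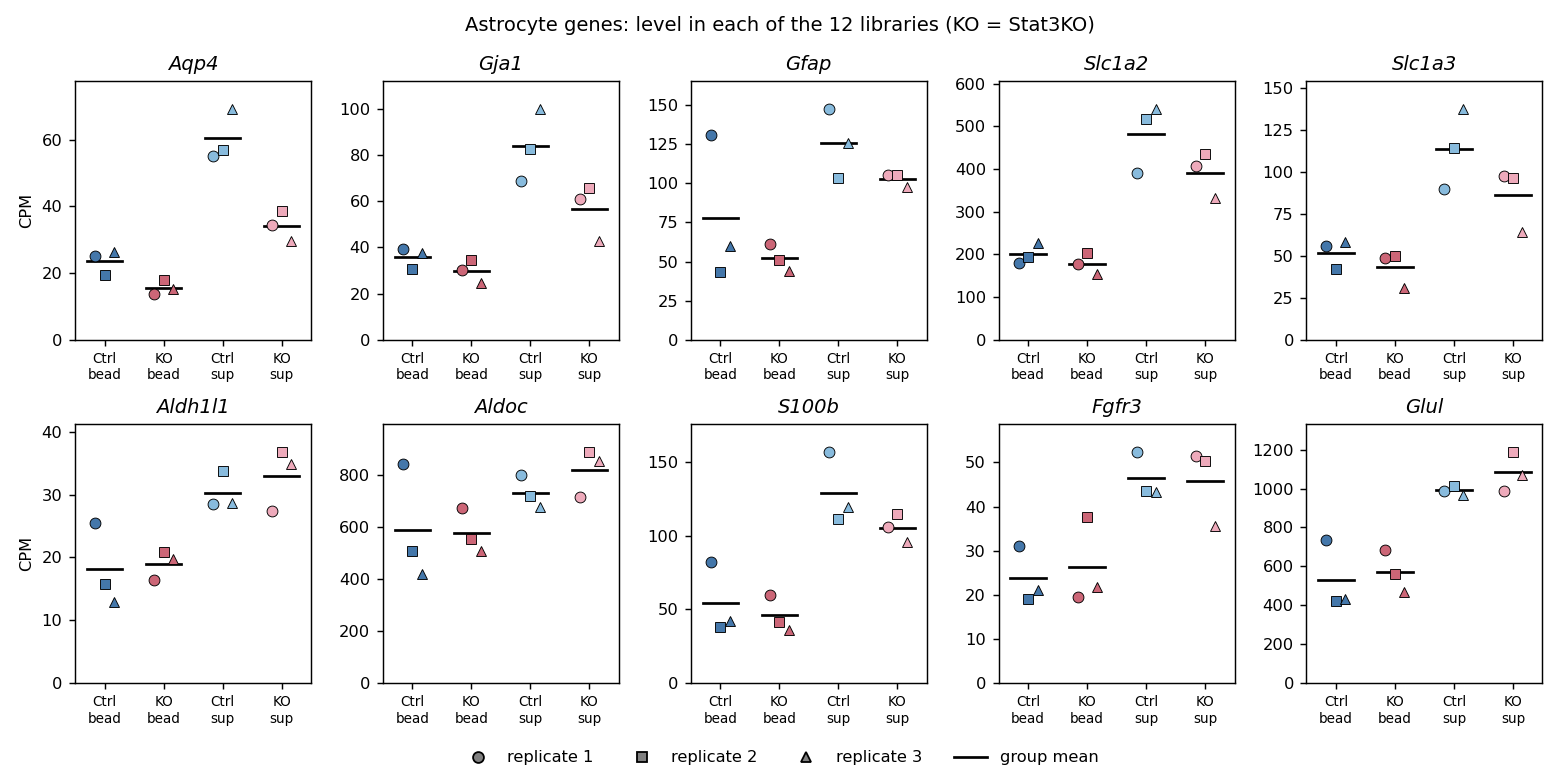
Level of each astrocyte gene in CPM (vertical axes, linear from 0) in the 12 libraries, by group (KO is Stat3KO, sup is supernatant), with the marker shape giving the replicate and the bar the mean of 3 pools. Supernatant lies above beads except where Ctrl bead replicate 1 is high (Aldoc at 843 CPM, Gfap at 131 CPM) or for Fgfr3 in Stat3KO, and Aqp4 separates all 4 groups.

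The exons of some of the genes overlap other transcripts, and no source used here says whether the library kit kept strand information. Of the exonic bases of Fgfr3, 13.9% are shared with G630022F23Rik on the opposite strand (0.404 to 1.55 CPM), and of those of Aldh1l1, 11% with Gm15756 on the opposite strand (0 to 0.0462 CPM). The overlap of Glul with Teddm2 covers 3.49% and that of Slc1a2 with Gm13872 covers 1.44% of the exonic bases.

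Divided by the exonic length of the gene, the levels spread widely. In Ctrl supernatant Glul stood highest at 298 ± 6.82 CPM per kb, then Aldoc at 225 ± 19.6, S100b at 87.2 ± 16.3, Slc1a2 at 36.8 ± 6.18, Gfap at 29.8 ± 5.26, Slc1a3 at 13.3 ± 2.80, Aqp4 at 9.70 ± 1.24, Gja1 at 8.19 ± 1.53, Aldh1l1 at 6.71 ± 0.673 and Fgfr3 at 6.49 ± 0.718 CPM per kb. In this order the libraries of Slc1a2 and Gfap overlapped, as did each neighbour from Slc1a3 downward. On Ctrl beads Aldoc (181 ± 68.3 CPM per kb) and Glul (159 ± 53.7 CPM per kb) overlapped at the top and S100b was next at 36.4 ± 16.6 CPM per kb. Stat3KO beads gave the same top 3, at 177 ± 25.9, 172 ± 32.3 and 30.9 ± 8.44 CPM per kb. In Stat3KO supernatant Glul (326 ± 30.3 CPM per kb) lay above Aldoc (251 ± 28.4 CPM per kb) without overlap, and Aqp4 was the lowest of the 10 at 5.49 ± 0.729 CPM per kb, overlapping Gja1 at 5.52 ± 1.17 CPM per kb.

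The comparison of fractions sets RNA bound to the tagged ribosomes of LepRb cells against the unbound RNA of the same tissue. The median log2 fold change of the 10 genes was -1.05 in Ctrl and -0.97 in Stat3KO, against -0.01 and -0.02 over all tested genes. Bead and supernatant libraries did not overlap for 8 of 10 genes in Ctrl and 9 of 10 in Stat3KO, in both cases with beads lower, which held for 28.0% and 25.0% of all tested genes. The 2 comparisons are of separate pools. With the pool as a block, since both fractions came from the same animals, Gfap (-0.83, adjusted p = 0.00241) and Aldoc (-0.37, adjusted p = 0.0305) also passed in Ctrl, which makes 10 of 10 where 29.0% of all genes were lower. Without Ctrl bead replicate 1 the count was 10 of 10 as well (Gfap -1.29, adjusted p = 0.00029, and Aldoc -0.66, adjusted p = 0.0017), where 24.4% of 18790 genes were lower. Scaling by library totals alone moved the median of all genes to -0.16 in Ctrl and -0.12 in Stat3KO, the split of calls in Ctrl from 3735 higher and 3829 lower to 2387 and 4906 and that in Stat3KO from 2669 and 3135 to 1842 and 3716. The counts of astrocyte genes stayed at 8 and 10 under that scaling, where 27.2% and 20.5% of all genes were lower, with medians of -1.20 and -1.07.

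**Figure D2:**
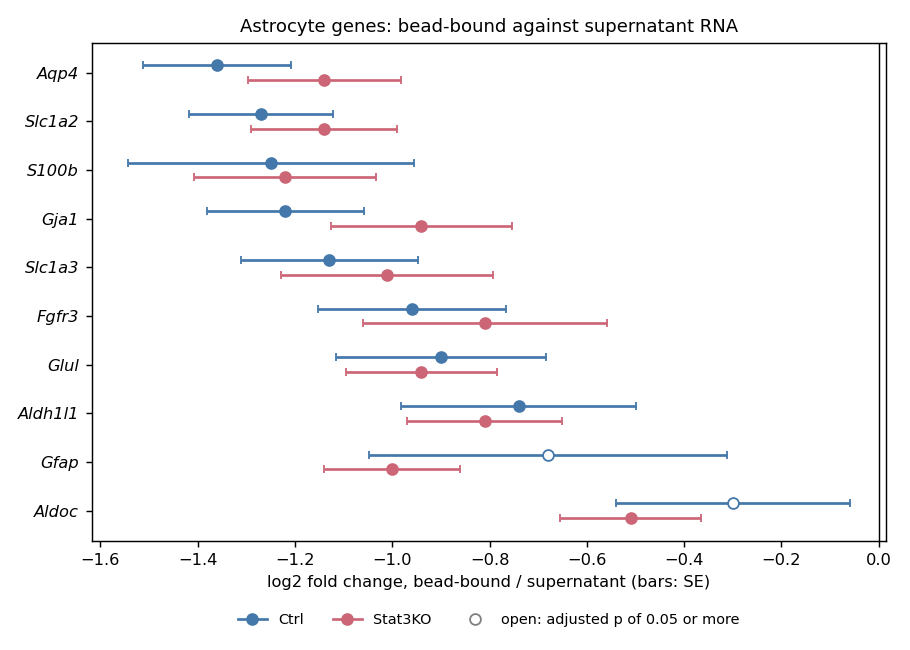
Log2 fold change of bead-bound against supernatant RNA for each astrocyte gene (horizontal axis, bars are SE, n = 3 against 3 libraries), Ctrl in blue and Stat3KO in red, with open points at an adjusted p of 0.05 or more. All points lie left of 0, and Gfap (-0.68) and Aldoc (-0.30) in Ctrl are open.

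Within a pool the bead level can be set as a percentage of the supernatant level, and it was under 100% in 59 of 60 ratios (10 genes in 6 pools), with a median of 47.9%. The exception was Aldoc in Ctrl pool 1, at 105%. Aldoc had the highest percentage of the 10 genes in 4 of 6 pools and was among the 3 highest in 6 of 6, with a median of 66.4%. S100b was lowest in 4 of 6 pools, with a median of 36.8%, and Aqp4 and S100b were each among the 3 lowest in 5 of 6. The medians over the 10 genes were 60.5%, 39.3% and 43.2% in Ctrl pools 1, 2 and 3 and 53.2%, 50.0% and 50.0% in Stat3KO pools. Slc1a2 varied least among the genes, between 37.3% and 46.8%, and Fgfr3 ran from 37.7% to 75.0%.

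The comparison of genotypes in supernatant covers RNA mostly from cells without the tag. The astrocyte genes with the largest differences were Aqp4, which averaged 34.2 ± 4.54 CPM for Stat3KO against 60.5 ± 7.75 CPM for Ctrl (-0.83 on the log2 scale, SE 0.131, adjusted p = 0.0895), and Gja1, at 56.6 ± 12.0 and 84.0 ± 15.7 CPM (-0.58, SE 0.17, adjusted p = 0.57). For these 2 of 10 genes every Stat3KO library lay below every Ctrl library, which held for 6.25% of all genes in that direction. Slc1a3 (-0.41, adjusted p = 0.787), Slc1a2 (-0.31, adjusted p = 0.807), S100b (-0.30, adjusted p = 0.8) and Gfap (-0.29, adjusted p = 0.786) had negative values with overlapping groups. Aldoc (0.15), Glul (0.12), Aldh1l1 (0.11) and Fgfr3 (-0.03) had small values of either sign, at adjusted p from 0.891 to 0.985. At an unadjusted p under 0.05 the count was 5 of 10 lower and 0 higher, against 4.1% and 2.09% of all genes, and the median of the 10 was -0.30 against -0.00.

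Whether Aqp4 passed depended on the test. DESeq2 gave it adjusted p = 3.88e-05, where 0.156% of 18543 genes were lower, and edgeR without a filter on low counts gave 1.14e-07 for Aqp4 and 0.00144 for Gja1, where 0.479% of 32767 genes were lower. In limma-voom (0.117), with all 12 libraries in 1 fit (0.286), with the replicate number as a block (0.168), with either other scaling (0.0894 and 0.091) and with any 1 library left out (0.0556 to 0.39) it did not pass. In replicates 2 and 3 alone Aqp4 (-0.89, adjusted p = 0.00287), Gja1 (-0.76, adjusted p = 0.0169), Slc1a2 (-0.48, adjusted p = 0.0197) and Slc1a3 (-0.66, adjusted p = 0.027) were lower in Stat3KO and Aldoc was higher (0.30, adjusted p = 0.0196), where 4.22% and 1.07% of 18678 genes were lower and higher. Stat3KO supernatant replicate 3 was the lowest of the 6 supernatant libraries for 7 of the 10 genes and Ctrl supernatant replicate 3 the highest for 4 of them. Without the former Aqp4 was at -0.73 (adjusted p = 0.319) and Gja1 at -0.41 (0.996), and without the latter at -0.72 (0.39) and -0.43 (1.0).

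Marker lists of other glia in the same supernatant libraries gave these values. The summed level of 10 oligodendrocyte markers was 4788 to 5422 CPM in Stat3KO and 5759 to 7305 CPM in Ctrl, that of 8 precursor markers 462 to 487 and 535 to 567 CPM, and that of 10 microglia markers 74.8 to 109 and 112 to 121 CPM, without overlap in each case. Their median log2 fold changes were -0.51, -0.22 and -0.32, with 0 genes called in edgeR, 1, 1 and 0 lower in DESeq2 and 6, 3 and 3 lower at an unadjusted p under 0.05. Over all genes 0.156% were lower in DESeq2 and 4.1% at that unadjusted p. In replicates 2 and 3 alone, where 4.22% of all genes were lower, 6, 3 and 3 of these markers were lower. Without a filter on low counts 6, 1 and 1 were, where 0.479% of all genes were lower. Without Stat3KO supernatant replicate 1 the counts were 1, 0 and 1, where 37 genes of all were lower. Neuron markers summed to 7636 to 7940 CPM in Stat3KO and 6693 to 7887 CPM in Ctrl, with a median of 0.01 and 0 called or at an unadjusted p under 0.05. The part of these lists in the astrocyte values was not tested. The summed level of the 10 astrocyte genes themselves was 2593 to 3023 CPM in Stat3KO and 2782 to 2813 CPM in Ctrl. These groups overlapped, with Glul, Aldoc and Slc1a2 contributing the most. A list of 10 astrocyte channel and junction genes, described below, summed to 819 to 1038 CPM in Stat3KO and 1102 to 1241 CPM in Ctrl, without overlap. The sums of each other astrocyte list described below overlapped.

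On beads Aqp4 averaged 15.6 ± 2.21 CPM for Stat3KO against 23.6 ± 3.79 CPM for Ctrl (-0.59 on the log2 scale, SE 0.181, adjusted p = 0.716), and of the 10 genes it was the 1 whose groups did not overlap, against 4.27% of all genes in that direction. Gfap had the same value of -0.59 with a larger error (SE 0.341, adjusted p = 0.999), and it was at 0.01 without Ctrl bead replicate 1. Gja1 and Slc1a3 were at -0.27, S100b at -0.24, Slc1a2 at -0.16, Aldoc at -0.03, Aldh1l1 at 0.07, Glul at 0.11 and Fgfr3 at 0.15, all with adjusted p = 0.999 and overlapping groups. At an unadjusted p under 0.05 1 of 10, Aqp4, was lower and 0 were higher, against 2.01% and 2.1% of all genes, and DESeq2 called 0, against 0.0922% lower and 0.623% higher. The median of the 10 genes was -0.20 against -0.01 over all genes, and without Ctrl bead replicate 1 it was 0.11 against 0.01, with Aldoc at 0.32 and S100b at 0.20.

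**Figure D3:**
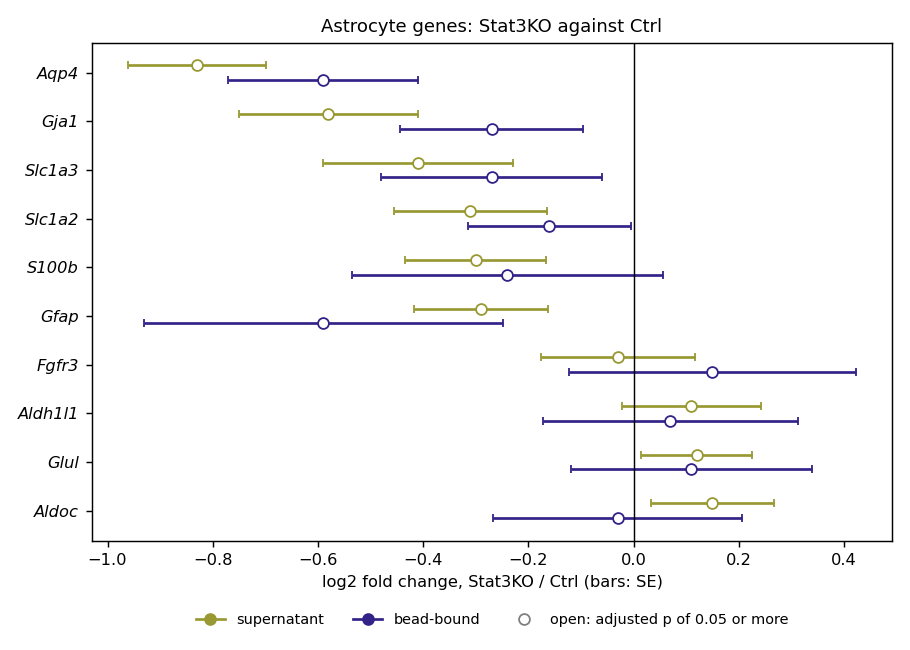
Log2 fold change of Stat3KO against Ctrl for each astrocyte gene (horizontal axis, bars are SE, n = 3 against 3 libraries), in supernatant and bead-bound RNA, with all points open because no adjusted p was under 0.05. Aqp4 (-0.83 in supernatant and -0.59 on beads) lies farthest to the left in supernatant, while Aldh1l1, Glul and Aldoc lie near 0.

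The bead to supernatant ratio was compared between genotypes in 1 fit over all 12 libraries, which shares its samples with the other comparisons. None of the 10 genes passed in edgeR, at adjusted p = 1.0 for each and where 0.204% of 19122 genes were called. At an unadjusted p under 0.05 the count was 0 of 10 (0.675% of all genes lower and 1.44% higher), and in DESeq2 it was 0 of 10 (0.0157% and 0.314%). The differences ran from -0.30 (SE 0.413) for Gfap to 0.30 (SE 0.258) for Gja1, with Aqp4 at 0.23 (SE 0.223). Gfap was at 0.06 in replicates 2 and 3 alone. Calls on Gfap and Aldoc in Stat3KO and not in Ctrl are therefore not shown to differ between the genotypes (Gfap above and Aldoc at -0.19, SE 0.289).

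The libraries within a group differed in ways that ran through several of the genes. Ctrl bead replicate 1 was the highest of the 6 bead libraries for Gja1, Gfap, Aldh1l1, Aldoc, S100b and Glul, 6 of the 10, with a median deviation of 0.42 on the log2 scale from the mean of the bead libraries. The largest deviation was that of Gfap, at 1.13. In the same library the oligodendrocyte markers summed to 3150 CPM (1846 and 2334 CPM in the other two of its group), the microglia markers to 65.0 CPM (40.5 and 45.3 CPM) and the ependyma and tanycyte markers to 93.9 CPM (53.4 and 70.5 CPM), while Gfp_L10a was at 97.5 CPM (164 and 131 CPM). The part of these in the astrocyte levels was not tested. Stat3KO bead replicate 1 had the lowest Gfp_L10a at 82.3 CPM (161 and 148 CPM in replicates 2 and 3). Its astrocyte genes deviated by a median of -0.03 and summed to 1781 CPM (1574 and 1323 CPM in replicates 2 and 3). Its oligodendrocyte markers summed to 2525 CPM (2119 and 1760 CPM) and its microglia markers to 53.7 CPM (40.4 and 29.5 CPM). Its ependyma and tanycyte markers summed to 85.1 CPM (52.5 and 43.9 CPM). The part of these in its astrocyte levels was not tested either. Stat3KO replicate 3 deviated by -0.30 on beads and -0.32 in supernatant, the lowest median of each fraction.

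**Figure D4:**
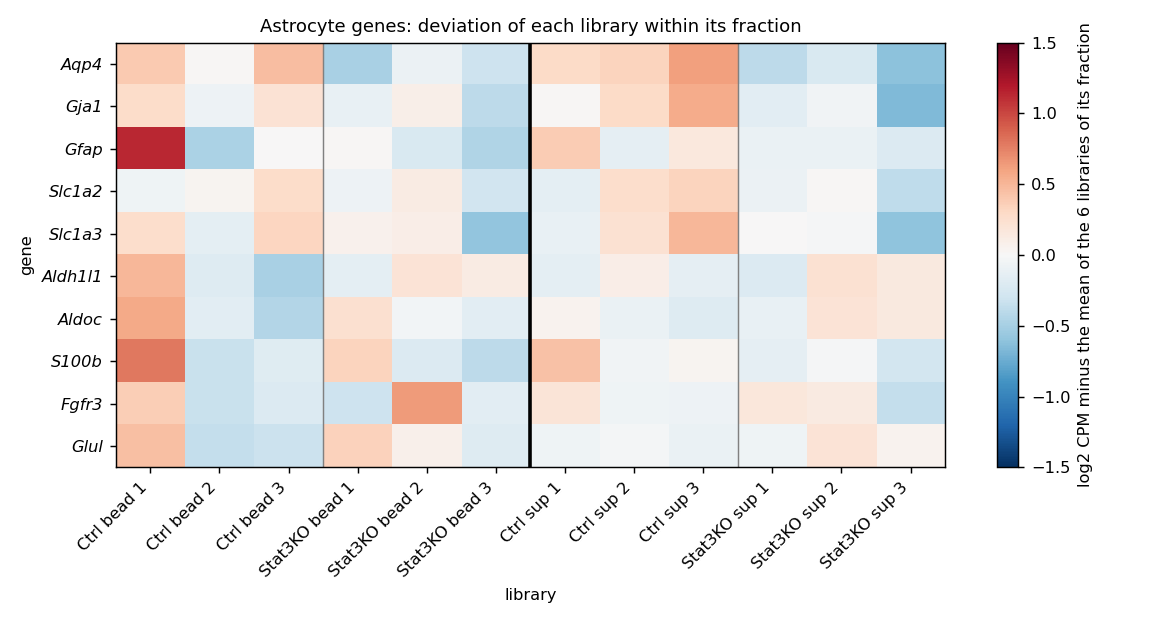
Deviation of each library from the mean of the 6 libraries of its fraction, in log2 CPM, for the 10 astrocyte genes (rows) and 12 libraries (columns), red above and blue below the mean. The column of Ctrl bead 1 is red for most genes, up to 1.13 for Gfap, and that of Stat3KO sup 3 is blue for most.

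Other genes known from astrocytes were taken as 5 lists with 56 genes, chosen with earlier results of these data known. Over all tested genes 21.2% were lower and 20.7% higher on beads in Ctrl, and 17.3% and 14.7% in Stat3KO. Of 10 channel and junction genes, 8 were lower on beads in Ctrl and 7 in Stat3KO (medians -1.09 and -0.96), among them the potassium channel genes Kcnj10 (-1.66 and -1.54) and Kcnj16 (-1.40 and -1.15) and the adhesion gene Hepacam (-1.31 in each). Of 14 transport and metabolism genes, 9 were lower in Ctrl and 8 in Stat3KO (medians -0.91 and -0.84), with the deiodinase gene Dio2 at -1.38 and -1.66 and the lipid-binding gene Fabp7 at -1.43 and -1.20. The thyroid hormone transporter gene Slco1c1, also known from brain endothelium and named here after its value was seen, was the 1 gene of this list higher in Ctrl (1.13, adjusted p = 0.0183). Which cells gave its bead-bound transcript was not tested. Of 14 genes for secreted and surface proteins, 10 were lower in Ctrl and 9 in Stat3KO (medians -0.88 and -0.73), with the receptor gene Ntsr2 at -1.40 and -1.22, and the clusterin gene Clu, named after its value was seen, was higher in each genotype (0.65 and 0.61, adjusted p = 0.00434 and 0.0405). Of 6 transcription factor genes, 4 were lower in Ctrl and 6 in Stat3KO (medians -0.96 and -1.07), among them Nfia (-1.70 and -1.68) and Sox9 (-1.11 and -1.15). With 1 library left out some of these counts were smaller: in Ctrl 4 transport genes were lower without bead replicate 2 or 3 or supernatant replicate 1 or 3, and 6 secreted or surface genes without bead replicate 2 or supernatant replicate 3. In Stat3KO 4 channel genes were lower without supernatant replicate 2, and 5 and 3 secreted or surface genes without supernatant replicates 1 and 2. The calls over all genes fell too. In Ctrl those lower went from 3829 to 2710 and 3465 without bead replicates 2 and 3. They went to 3228 and 2642 without supernatant replicates 1 and 3. In Stat3KO those lower went from 3135 to 2587 and 1678 without supernatant replicates 1 and 2.

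The reactive genes, which astrocytes raise after injury, did not share this direction as a list, though single genes did. Of 12 such genes 9 were tested, and 5 were higher on beads in Ctrl and 2 in Stat3KO, with 0 lower in edgeR in each. By sign 7 were positive and 2 negative in each genotype. In Stat3KO the groups did not overlap for 2 higher and 2 lower genes, against 4324 and 4530 of 18107 genes in all. Aspg, named after its value was seen, was at -1.32 in Ctrl (adjusted p = 0.141) and -1.29 in Stat3KO (adjusted p = 0.0529). With the pool as a block 1 was lower in each genotype, DESeq2 called 0 lower in Ctrl and 1 in Stat3KO, and at an unadjusted p under 0.05 the counts of lower genes were 0 and 1. Without Ctrl supernatant replicate 1, 2 or 3 or bead replicate 3 the count of higher genes in Ctrl was 3. Over all genes 3139, 2215, 2709 and 3643 were higher in those fits. The background of higher genes was 20.7% in Ctrl and 14.7% in Stat3KO. Serpina3n, a protease inhibitor gene, was at 164 ± 28.2 CPM on beads and 11.6 ± 3.58 CPM in supernatant of Ctrl (log2 fold change 3.81, adjusted p = 4.82e-05) and at 81.6 ± 16.9 and 12.7 ± 1.55 CPM in Stat3KO (2.67, adjusted p = 3.72e-05). Vim, the gene of another intermediate filament, was at 0.87 in Ctrl (adjusted p = 0.00195) and 0.60 in Stat3KO (adjusted p = 0.0133). Timp1, a metalloprotease inhibitor gene, was at 1.57 ± 0.657 CPM on beads and 0.147 ± 0.0649 CPM in supernatant of Ctrl (adjusted p = 0.00107), and in Stat3KO its means of 0.604 and 0.299 CPM did not pass (log2 fold change 0.97, SE 0.493, adjusted p = 0.158). These genes are also known from other cells: Vim from endothelium and tanycytes, Serpina3n from hypothalamic neurons that respond to leptin. Which cells gave their bead-bound transcripts was not tested.

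Between genotypes none of the genes in the 5 astrocyte lists passed in edgeR with TMM scaling and all libraries of the comparison. On beads 1 reactive gene was lower in DESeq2, with library totals, without a filter, in the fit of all 12 libraries and without Stat3KO bead replicate 1. Over all genes 16, 6, 50, 9 and 13 were lower in those fits. In supernatant 1 secreted or surface gene was lower in DESeq2, where 0.156% of all genes were. Without a filter 2 of these and 2 transport genes were lower, where 0.479% of all genes were. In replicates 2 and 3 alone, 1 channel, 2 secreted or surface and 2 reactive genes were lower and 1 secreted or surface gene higher on beads, where 894 genes of all were lower and 273 higher. In supernatant the same replicates gave 4 channel, 3 transport and 4 secreted or surface genes lower and 1 transport gene higher, where 4.22% and 1.07% of all genes were. At an unadjusted p under 0.05 the supernatant counts were 4 channel, 5 transport, 3 secreted or surface, 1 transcription factor and 0 reactive genes lower and 0 higher, where 4.1% of all genes were lower. On beads 2 reactive genes were lower and 0 of the others, where 2.01% of all genes were lower. The lowest p in supernatant was that of S1pr1, a lipid receptor gene, which averaged 28.2 ± 3.04 CPM for Stat3KO against 40.4 ± 1.57 CPM for Ctrl (-0.53, adjusted p = 0.329). The channel and junction genes had a median of -0.28 in supernatant. On beads Serpina3n was at -1.0 (SE 0.187, adjusted p = 0.0595), and its bead to supernatant ratio differed by -1.13 (SE 0.292, adjusted p = 0.438).

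Markers of other cells gave both directions in the same fractions, to be read against 21.2% lower and 20.7% higher of all genes in Ctrl and 17.3% and 14.7% in Stat3KO. In Ctrl 10 of 10 oligodendrocyte markers and 8 of 10 microglia markers were lower on beads (medians -1.44 and -1.53), as were 10 of 10 and 9 of 10 in Stat3KO (-1.27 and -1.46). Of 10 endothelium markers 9 were higher in Ctrl and 6 in Stat3KO (medians 1.77 and 1.84). The Stat3KO count was 10 with the pool as a block and 10 without bead replicate 1. It was 2 without bead replicate 2 or 3 and 1 without supernatant replicate 1, 2 or 3. Over all genes those higher in Stat3KO numbered 2669 in the main fit, 4290 with the block and 2921 without bead replicate 1. They numbered 2448 and 1942 without bead replicates 2 and 3, and 2327, 1201 and 1425 without supernatant replicates 1, 2 and 3. The endothelium markers summed to 38.5, 224 and 149 CPM in replicates 1, 2 and 3 of Stat3KO beads. In Stat3KO supernatant they summed to 43.3, 49.3 and 38.6 CPM, so in replicate 1 the beads held less. Of 8 oligodendrocyte precursor markers 5 were lower in each genotype (medians -1.13 and -1.0), with 1 higher in Ctrl and 0 in Stat3KO. With 1 library left out 4 to 6 and 5 to 6 were lower. Neuron markers had medians of 0.16 and 0.06 with 3 and 2 of 10 higher. With 1 library left out, 2 to 3 neuron markers were higher in Ctrl. In Stat3KO 0 to 3 were higher and 0 to 1 lower. These fits called 2215 to 4234 of all genes higher in Ctrl and 1201 to 2921 in Stat3KO. Ependyma and tanycyte markers had medians of -0.48 and -0.29 with 2 of 10 lower in each genotype (0 to 5 in Ctrl and 1 to 4 in Stat3KO with 1 library left out). Over all genes 1 library left out gave 2642 to 4579 lower in Ctrl and 1678 to 3489 lower in Stat3KO.

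**Figure D5:**
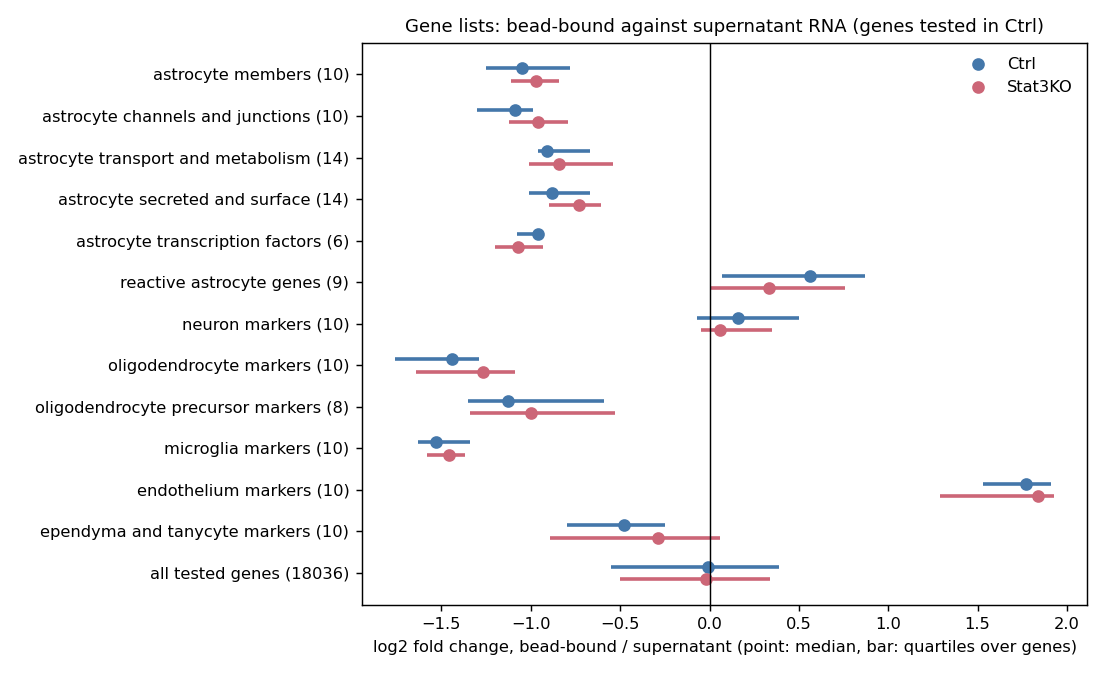
Median log2 fold change of bead-bound against supernatant RNA for each list of genes (points, with bars from the lower to the upper quartile over genes and the number of genes tested in Ctrl in parentheses), Ctrl in blue and Stat3KO in red. The astrocyte genes (-1.05 and -0.97) lie left of all tested genes (-0.01 and -0.02), reactive genes and endothelium markers lie to the right.

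Outside these lists, the genes whose libraries deviated most like the mean of the 10 astrocyte genes were Gjc3, Ddr1, Rftn2, Fam234a and Sfxn5. Likeness was the root mean square difference in log2 CPM over 12 libraries after the mean of each fraction was taken away, among 3347 genes with a mean log2 CPM of at least 3 and at least as much spread as that mean. It was 0.0943 for Gjc3, a connexin gene of oligodendrocytes, 0.0969 for Ddr1, a collagen receptor gene, 0.108 for Rftn2, 0.112 for Fam234a and 0.114 for Sfxn5. The 10 astrocyte genes themselves lay 0.201 (Glul) to 0.305 (Aqp4) from their own mean. The genes named above were picked from 3347 for the lowest values and the 10 were not, so these values cannot be ranked together. The fraction means, which the measure leaves out, differed: beads against supernatant in Ctrl was -2.06 for Gjc3 and -0.71 for Ddr1.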

How the data were processed

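RNA was sequenced from bead-bound and supernatant fractions of 6 pools of hypothalamus, with RNA integrity of at least 8 and 50 cycles per read, per the labels' protocols. The authors deposited raw whole-number counts per gene. Reads were mapped with STAR 2.5.3a and the build was mm10, per the submitters' processing notes. The sources used here do not give the counting tool, its annotation or its filters. GENCODE M21 matched 52489 of 52638 identifiers and left 149 unmatched. Promoter windows came from RefSeq on GRCm38.p6. The pools are separate groups of mice, so p-values between genotypes measure the spread between pools. Between fractions and for the difference of ratios the main fits had no pool term. They took both fractions of a pool as separate libraries, so those p-values do not measure the spread of paired differences.

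The main test was the 2-sided quasi-likelihood test of edgeR 4.0.16 (R 4.3.3), with TMM factors and filterByExpr at its minimum count of 10 and minimum total of 15. P-values were adjusted by Benjamini-Hochberg over all genes tested. Each comparison of groups used its 6 libraries, and the difference of ratios used all 12. An SE is the absolute log2 fold change over the root of F. Alternatives were DESeq2 1.42.0, limma-voom (limma 3.58.1), 2 other scalings, no filter, a joint fit, a replicate block, and libraries left out. The scripts were tested on simulated data.

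The members and lists were chosen with earlier results of these data known. The 10 astrocyte genes are named whether they passed or not. Genes of the other lists are named from up to 3 per list and comparison that passed with the largest fold change, or else the 1 with the lowest p, and not all of these are printed. Those named outside this rule are marked in the text.

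Bead-bound and supernatant RNA of the same number come from the same pool, per the series' design. Their deviations from the group means correlated at r = 0.254 to 0.478 across genes, which are not independent replicates. Bead and supernatant libraries of the same genotype with other numbers correlated at -0.349 to 0.169. Deviations from a mean of 3 libraries constrain one another, so the pairing is taken from the series' design. Between genotypes the pools are of separate mice, and no label says whether a number marks anything else that they share.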

Additional observations from a re-analysis of the deposited data

How the results depend on the processing

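The direction of each astrocyte gene between fractions was the same under every alternative run, and the genes called lower on beads numbered 7 to 10 in Ctrl and 8 to 10 in Stat3KO with 1 library left out. Between genotypes in supernatant, the genes of the 10 called lower were 0 in edgeR, 1 in DESeq2, 2 without a filter, and 4 (with 1 higher) in replicates 2 and 3 alone. The cause of these moves was not tested. The smallest count of any of the 10 genes in a library was 432, and each group held 3 libraries.

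Counts over all genes moved as follows. Between genotypes on beads (73 higher, 5 lower), DESeq2 gave 16 lower, no filter 133 higher and 50 lower, the joint fit 9 lower, the replicate block 3 lower, and replicates 2 and 3 alone 273 and 894. With 1 library left out, 53 to 69 were higher and 3 to 13 lower. In supernatant (0 higher, 2 lower; 388 and 761 at an unadjusted p under 0.05), DESeq2 gave 14 and 29, no filter 46 and 157, the replicate block 2 higher, and replicates 2 and 3 alone 200 and 788. With 1 library left out, 0 to 6 were higher and 2 to 37 lower. Between fractions, 1 library left out gave 2215 to 4234 higher and 2642 to 4579 lower in Ctrl and 1201 to 2921 and 1678 to 3489 in Stat3KO. Library totals gave 2387 higher in Ctrl, and the pool as replicate block gave 4290 higher and 4709 lower in Stat3KO. For the difference of ratios (37 higher, 2 lower), DESeq2 gave 60 higher, limma-voom 1 lower, no filter 76 and 21, the replicate block 4 lower, and replicates 2 and 3 alone 4 lower. With 1 library left out, 24 to 35 were higher and 0 to 3 lower.

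Signs turned only where no call was made. On beads between genotypes Aldoc (-0.03) was at 0.03 in limma-voom, 0.02 with the replicate block and 0.17 in replicates 2 and 3 alone. With 1 library left out the values on beads ran from -0.89 to 0.01 for Gfap, -0.12 to 0.40 for Aldh1l1, -0.23 to 0.32 for Aldoc, -0.47 to 0.20 for S100b, -0.22 to 0.39 for Fgfr3 and -0.04 to 0.43 for Glul, and in supernatant from -0.12 to 0.13 for Fgfr3. In the difference of ratios Aldh1l1 (-0.04) was at 0.05 in limma-voom, 0.01 with the block and 0.30 in replicates 2 and 3 alone, and Glul (-0.01) at 0.03, 0.02 and 0.09 there and at 0.01 with library totals. Gfap was at 0.06 in replicates 2 and 3 alone. With 1 library left out these differences ran from -0.59 to 0.30 for Gfap, -0.04 to 0.33 for Slc1a3, -0.24 to 0.28 for Aldh1l1, -0.39 to 0.16 for Aldoc, -0.18 to 0.49 for S100b, -0.17 to 0.41 for Fgfr3 and -0.16 to 0.30 for Glul. The joint fit lost the call on Aldoc between fractions in Stat3KO (-0.50, adjusted p = 0.0713), and no filter gave one on Gfap in Ctrl (-0.66, adjusted p = 0.0158).

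No label says whether a replicate number marks anything shared between the genotypes. With the number as a block between genotypes, 0 of the 10 genes were called in either fraction, and Aqp4 in supernatant had adjusted p = 0.168. Deviations of same-numbered libraries correlated at -0.1 to 0.197 on beads and 0.032 to 0.198 in supernatant. Those of libraries with other numbers correlated at -0.284 to 0.134 on beads and -0.147 to 0.109 in supernatant. With the pool as a block between fractions no other call on the 10 genes changed than those on Gfap and Aldoc in Ctrl.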
